A study of Mus musculus with 6 samples.

Results

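The imprinted Dlk1-Dio3 cluster is a long array of microRNA (miRNA) genes on mouse chromosome 12, and its mature miRNAs were followed in ulcerated skin. A list of 55 mature miRNAs of the cluster was matched by name to the rows of the deposited count table, and 49 of them were present among the 649 entries of the table. The 6 listed names without a row were miR-376a-3p, miR-382-3p, miR-544-3p, miR-665-3p, miR-679-5p and miR-758-3p, which were not analysed here. The match uses names alone, although the list was drawn up with earlier results of these data known.

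Skin from C57 mice, an inbred strain, was used for small RNA sequencing, and the tissue came from either an ulcer labelled normal or an ulcer labelled diabetic, all labelled day 14. The labels name 3 samples per group and give no age, sex, way of inducing diabetes or wounding method, and whether each sample is its own animal is not stated. Any p below reflects the spread of these samples, which may be technical. Total counts in the independent libraries ran from 8949104 to 13421603.

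The values of the columns numbered 3 were not independent of the other columns. A weighted sum of normal ulcer 1 (weight 0.5) and normal ulcer 2 (weight 0.506) gave the count of normal ulcer 3 to within 1 read or 1% in all 49 members. Diabetic ulcer 3 repeated the count of 1 or the other diabetic library in 19 of the 21 members where those were unequal and under 60. In the 28 members with a count of 60 or more in either, it lay outside the range of diabetic ulcer 1 and 2 in 24, so its dependence was seen directly only at low counts. All comparisons below therefore use libraries 1 and 2 of each group (n = 2 per group). With 2 libraries against 2, an exact two-sided permutation test cannot give a p below 0.333.

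In the Dlk1-Dio3 domain the protein-coding genes Dlk1, Rtl1 and Dio3 are expressed from the paternal chromosome, whereas the non-coding RNAs Meg3, Rian and Mirg and the miRNAs are expressed from the maternal chromosome. The miRNAs are thought to be cut from long maternal transcripts, and they are known for high levels in embryonic tissue, brain and developing or regenerating muscle. In mice the miRNAs opposite Rtl1 pair fully with the Rtl1 messenger RNA and direct its cleavage, while the miR-379 to miR-410 array is best known from neurons and from metabolic adaptation after birth. A mature miRNA recognises messenger RNAs mainly through its seed, bases 2 to 8.

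The mature sequences of the 12 most abundant members are shown because they made up 95.4% to 95.9% of the members' counts in each library. They were taken from RefSeq (GRCm38.p6, names with the mouse prefix, as in mmu-miR-127-3p, mmu-miR-379-5p, mmu-miR-541-5p and mmu-miR-381-3p), which held 46 of the 49 members, and run 5′ to 3′ with the seed in capitals.
miR-127-3p: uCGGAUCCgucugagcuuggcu
miR-379-5p: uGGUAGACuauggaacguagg
miR-541-5p: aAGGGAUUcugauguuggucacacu
miR-381-3p: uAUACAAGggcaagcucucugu
miR-300-3p: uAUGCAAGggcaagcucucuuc
miR-434-3p: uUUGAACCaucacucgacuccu
miR-434-5p: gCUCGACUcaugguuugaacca
miR-411-5p: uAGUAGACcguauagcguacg
miR-134-5p: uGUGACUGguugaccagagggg
miR-337-5p: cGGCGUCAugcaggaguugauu
miR-299a-3p: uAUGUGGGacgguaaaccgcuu
miR-382-5p: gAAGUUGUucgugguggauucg

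No seed was shared between any of the 46 members with a RefSeq sequence (0 of 46). Only 3 of them shared a seed with another entry of the table. These were miR-329-3p with miR-362-3p, miR-379-5p with miR-1193-5p, and miR-411-3p with miR-379-3p, of which miR-1193 and miR-379 also belong to the cluster. Members could be close in sequence and still differ in the seed. The closest pair was miR-381-3p and miR-300-3p, identical at 19 of 22 bases and differing by A4G, G21U and U22C (miR-381-3p base first, position counted from its 5′ end, then the miR-300-3p base). The first of these changes lies in the seed. miR-495-3p and miR-543-3p were identical at 18 of 22 bases and differed by A6U, A7U, A9G and U10C, with the first pair of changes in the seed.

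The 6 bases found in the largest number of members, searched on the mature strand in overlapping windows after the sequences had been seen, were ACACGG. They occurred in 5 of 46 members (10.9%) and in 0 of the 600 other entries of the count table, whose sequences the table gives (0.0%). The 5 sequences are shown with these bases in capitals to let their alignment be read. All 5 are 3p arms, and in 4 of them the run started at base 7.
miR-154-3p: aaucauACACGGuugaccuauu
miR-323-3p: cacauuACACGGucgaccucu
miR-411-3p: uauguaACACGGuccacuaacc
miR-485-3p: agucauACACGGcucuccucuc
miR-494-3p: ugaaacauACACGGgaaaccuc

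These 5 were not expressed alike. miR-411-3p ranged from 11.8 to 22.1 TMM-scaled CPM over the 4 libraries (CPM, counts as a share of the library total after edgeR's trimmed-mean scaling, used for all levels below unless stated; effective totals can be below the actual ones). miR-323-3p ranged from 2.86 to 6.06, miR-154-3p from 0.633 to 1.79 and miR-494-3p from 0.459 to 1.68 CPM. miR-485-3p was counted 6 and 4 times in normal ulcer 1 and 2 and 2 and 0 times in diabetic ulcer 1 and 2.

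All 46 members with coordinates lie on the plus strand of chromosome 12 within 171.8 kb on GRCm38, downstream of Dlk1 and upstream of Dio3. Annotation from GENCODE M21 placed 7 of them opposite the exon of Rtl1, 2 in introns of Rian, 4 in exons and 11 in introns of Mirg, and 22 between annotated genes. Along this span, levels differed widely between neighbours. The 2 most abundant members lie far apart, miR-127-3p 51.9 kb and miR-379-5p 168.06 kb after the start of Meg3. miR-433-3p, next to miR-127-3p, had 5.71 to 7.88 CPM where miR-127-3p had 2020 to 2741 CPM. Since ligation and amplification favour some small RNAs over others, differences in level between miRNAs are those of these libraries only.

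**Figure D1:**
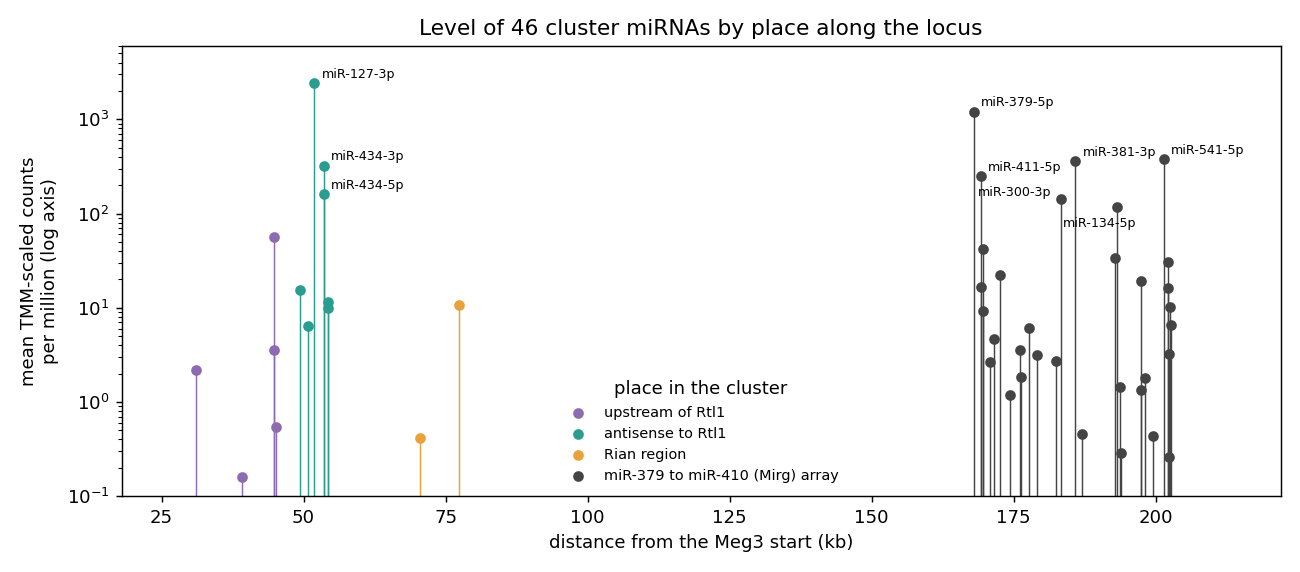
Mean TMM-scaled CPM over the 4 libraries (log axis) of the 46 members with coordinates against their distance from the start of Meg3 in kb, coloured by place in the cluster. The members opposite Rtl1 and the miR-379 to miR-410 array each hold both abundant and rare miRNAs, and members above 100 CPM are named.

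Most of the cluster's counts came from few miRNAs, and their shares were close in all libraries. miR-127-3p alone took 43.7% and 43.4% of the members' counts in normal ulcer 1 and 2, and 41.2% and 39.7% in diabetic ulcer 1 and 2. miR-379-5p took 18.2% and 21% in normal ulcer and 21.6% and 24.4% in diabetic ulcer. Both diabetic libraries thus had a smaller miR-127-3p share and a larger miR-379-5p share than both normal libraries. The 3 most abundant members together held 68.4% to 71.4%, and the 8 most abundant 91.1% to 91.7%. Shares of this kind do not depend on how libraries are scaled.

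The summed level of the 49 members depended on the denominator. As a share of library totals it was 8348 and 3804 CPM in the normal libraries 1 and 2, and 6355 and 5146 CPM in the diabetic libraries 1 and 2, so the normal libraries lay on both sides of the diabetic ones. The share of miR-1a-3p, a miRNA of striated muscle, ran the opposite way, at 16.42%, 64.98%, 34.42% and 44.4% in the same order. Over the counts outside miR-1a-3p, a denominator chosen after seeing the data, the sums were 9989 and 10860 CPM in the normal libraries and 9690 and 9254 CPM in the diabetic libraries. With TMM scaling they were 6275 and 6093 CPM in the normal libraries against 5345 and 5084 CPM in the diabetic libraries. On these last 2 scales both diabetic libraries lay below both normal ones. On library totals, where the groups overlapped, the log2 ratio of the group means was -0.08, and with TMM scaling it was -0.25. With TMM scaling it was -0.16 without normal ulcer 2 and -0.15 without diabetic ulcer 2. In bulk skin, fewer cells of a type and less RNA per cell cannot be told apart.

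**Figure D2:**
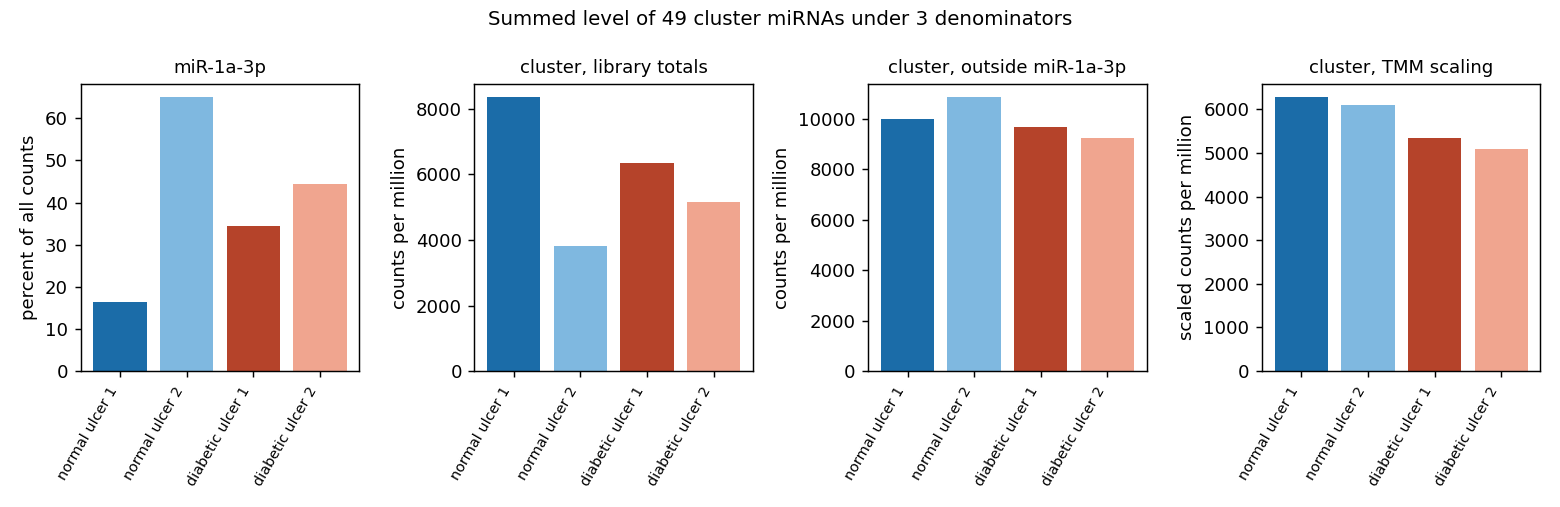
Share of miR-1a-3p in all counts (percent) and summed level of the 49 cluster members in CPM of all counts, of counts outside miR-1a-3p, and with TMM scaling, in each of the 4 libraries. The normal libraries at 8348 and 3804 CPM of all counts enclose the diabetic ones, whereas with TMM scaling both (6275 and 6093) lie above the diabetic libraries (5345 and 5084).

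The study's design asks which miRNAs differ between diabetic and normal ulcer skin. No member of the cluster passed the test at an adjusted p of 0.05. With edgeR's quasi-likelihood test on all 443 miRNAs that passed the filter on low counts, 0 were called (0.0%), and 4 (0.903%) had an unadjusted p under 0.05. Of the 49 members, 42 passed the filter. None of the 42 was called or had an unadjusted p under 0.05, and the smallest unadjusted p was 0.0833. DESeq2 on the same libraries called 0 of 443, with 3 at an unadjusted p under 0.05 and no member among them.

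Values of most members were nonetheless lower in diabetic ulcer. The group mean was lower for 40 of the 49 members in the table and higher for 9. Among the 42 tested, 35 had a log2 difference below 0, or 83.3%, where 52.4% of all tested miRNAs did. Markers of some cell types were below 0 about as often. These were 7 of 8 keratinocyte and epithelial miRNAs (median log2 difference -0.28) and 5 of 5 tested skeletal muscle miRNAs (median -0.68). So were 4 of 5 fibroblast and mural miRNAs (median -0.07) and 3 of 4 erythroid miRNAs (median -0.17). Fewer were below 0 among leukocyte (2 of 6, median 0.07), endothelial (2 of 4) and tested neural miRNAs (2 of 4). None of these markers was called, and their part in the cluster's values was not tested. The median log2 difference of the 42 tested members, diabetic minus normal, was -0.22 against -0.02 for all 443. The members' median was -0.43 without diabetic ulcer 1 and -0.14 without diabetic ulcer 2. With TMM scaling, both diabetic libraries lay below both normal ones for 16 of the 42, or 38.1%, against 12% of all tested miRNAs. Among the markers this held for 0 of 8 keratinocyte and epithelial, 0 of 5 tested skeletal muscle and 0 of 5 fibroblast and mural miRNAs. It held for 0 of 4 erythroid, 0 of 4 endothelial, 2 of 6 leukocyte and 1 of 4 tested neural miRNAs. Both diabetic libraries lay above both normal ones for 2 of the 42 members, against 9.03% of all. These members come from shared transcripts and the same 4 libraries, so they are not separate observations. On library totals the split was 24 lower and 18 higher with a median of -0.11, where the median of all tested miRNAs moved to 0.17. The groups overlapped on library totals for each of the 16 members that lay apart with TMM scaling. For all tested miRNAs the share lying apart was not computed on library totals.

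With the columns numbered 3 added, 32 of 42 tested members were lower in diabetic ulcer, where 46.8% of all tested miRNAs were. None was called (0.0% of all tested miRNAs). Of the 42 members, 8 had an unadjusted p under 0.05 in edgeR, where 11% of all tested miRNAs did. Columns that are not independent of others can make such a p too small.

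**Figure D3:**
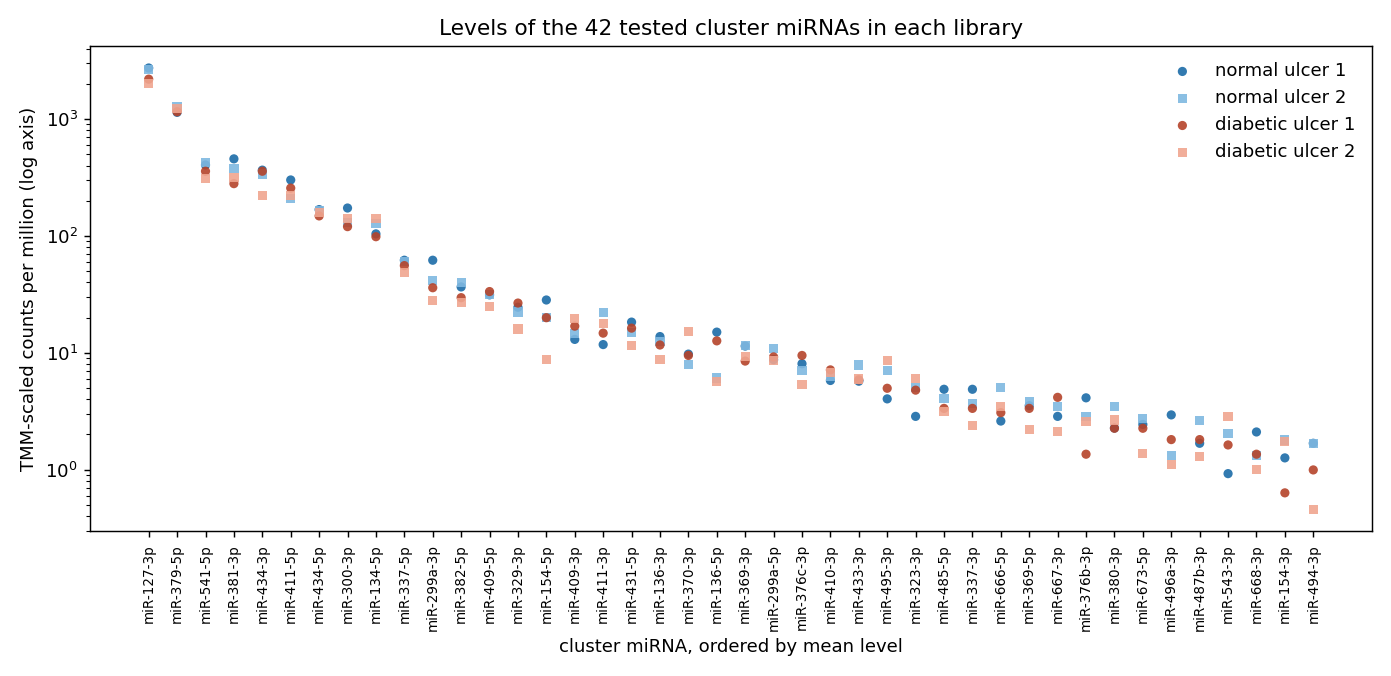
TMM-scaled CPM (log axis) of the 42 tested cluster miRNAs in each of the 4 libraries, ordered by mean CPM on library totals. Levels run from 2741 CPM for miR-127-3p in normal ulcer 1 to 0.459 CPM for miR-494-3p in diabetic ulcer 2.

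The members opposite Rtl1 were lower in diabetic ulcer in 7 of 7 cases, with a median log2 difference of -0.26, none of them passing the test. mmu-miR-127-3p (chr12:109592888-109592909), which directs cleavage of Rtl1 messenger RNA in mice, had 2741 and 2645 CPM in the normal libraries 1 and 2, and 2200 and 2020 CPM in the diabetic libraries 1 and 2. The groups did not overlap, and the means were 2693 ± 68.0 and 2110 ± 127 CPM (SD, n = 2). On library totals they did overlap, at 3647 and 1651 CPM in the normal and 2616 and 2045 CPM in the diabetic libraries. Whether groups overlap in level is judged with TMM scaling here and below, unless stated. For miR-127-3p the test used the same scaling. Its log2 difference was -0.35 ± 0.25 (SE) with adjusted p = 0.999 in edgeR's quasi-likelihood test. The hairpin from which it is cut is shown because its arms were used so unequally. It runs 5′ to 3′ at chr12:109592846-109592915 on the plus strand, with both mature arms in capitals.
Mir127: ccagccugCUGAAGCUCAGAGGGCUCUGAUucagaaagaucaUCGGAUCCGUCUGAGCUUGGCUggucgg

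The first capital run, miR-127-5p, is a miRNA of the cluster outside the list of members. It took 0.353% to 0.439% of the 2 arms' counts over the 4 libraries. The next precursor along, miR-434, gave more even arms. It lies at chr12:109594506-109594599 on the plus strand, again with both arms in capitals.
Mir434: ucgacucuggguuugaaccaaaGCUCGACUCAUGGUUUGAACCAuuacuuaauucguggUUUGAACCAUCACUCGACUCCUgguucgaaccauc

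miR-434-3p had 366 and 339 CPM in the normal libraries 1 and 2, and 358 and 223 CPM in the diabetic libraries 1 and 2. Diabetic ulcer 2 alone was low, and the groups overlapped. Its log2 difference was -0.28 ± 0.31 (SE), with adjusted p = 0.999 in edgeR. miR-434-5p, from the same hairpin, had 168 and 164 CPM in the normal libraries and 149 and 159 CPM in the diabetic libraries. These groups did not overlap, but the log2 difference was only -0.11 ± 0.22 (SE), and on library totals it took the opposite sign (0.05). For this arm diabetic ulcer 1, and not diabetic ulcer 2, had the lowest value. The 5p share of the 2 arms was 31.5% (95% Wilson interval 30.4 to 32.6), 32.7% (31.3 to 34.1) and 29.3% (28.1 to 30.5) in normal ulcer 1, normal ulcer 2 and diabetic ulcer 1. It was 41.6% (40.1 to 43.1) in diabetic ulcer 2, above the interval of each other library. These intervals include counting error within a library alone. Since reads copied by PCR are not separate molecules, the intervals may be too narrow even for that error.

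The other miRNAs opposite Rtl1 were rarer. miR-136-5p had 15.03 and 6.09 CPM in the normal libraries 1 and 2, and 12.7 and 5.69 CPM in the diabetic libraries 1 and 2. Library 2 was below library 1 by more than 2-fold in each group, and the groups overlapped. miR-136-3p, its partner arm, had 13.8, 12.4, 11.7 and 8.72 CPM in the same order, without overlap (log2 difference -0.36 ± 0.35, SE). miR-431-5p, which acts on muscle stem cells in mice, had 18.3 and 14.9 CPM in the normal libraries and 16.3 and 11.6 CPM in the diabetic libraries. miR-433-3p had 5.71 and 7.88 CPM in the normal libraries and 5.87 and 5.97 CPM in the diabetic libraries. Neither separated the groups.

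Upstream of Rtl1, 5 members were in the table, and all 5 had a lower mean in diabetic ulcer. Only 3 passed the filter. miR-337-5p had 62.0 and 60.3 CPM in the normal libraries 1 and 2, and 55.8 and 49.02 CPM in the diabetic libraries 1 and 2. The groups did not overlap, and its log2 difference was -0.22 ± 0.26 (SE). Its partner arm miR-337-3p had 4.87, 3.70, 3.34 and 2.39 CPM, again without overlap (log2 difference -0.58 ± 0.39, SE). miR-673-5p had 2.44 and 2.74 CPM in the normal libraries and 2.26 and 1.38 CPM in the diabetic libraries. None of the 3 passed edgeR's test (adjusted p = 0.999 for each). miR-540-3p had 2 to 12 counts and miR-493-5p 0 to 3 counts per library and were not tested.

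The pair of members in Rian introns had higher means in diabetic ulcer. miR-370-3p had 9.74 and 7.995 CPM in the normal libraries 1 and 2, and 9.49 and 15.3 CPM in the diabetic libraries 1 and 2. Diabetic ulcer 2 alone was high, and the groups overlapped (log2 difference 0.48 ± 0.40, SE, adjusted p = 0.999 in edgeR). miR-341-3p rested on 3, 2, 5 and 8 counts and was not tested.

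The miR-379 to miR-410 array held 35 members in the table and 31 tested ones. Of these 31, 25 had a log2 difference below 0 and 6 above, with a median of -0.21 and none passing. mmu-miR-379-5p (chr12:109709065-109709085) opens the array and is known from mouse models of diabetic kidney disease. It had 1143 and 1279 CPM in the normal libraries 1 and 2, and 1157 and 1240 CPM in the diabetic libraries 1 and 2, so the diabetic values lay within the normal range. Its log2 difference was -0.01 ± 0.25 (SE), and its sign changed with the scaling (0.18 on library totals). miR-411-5p, cut from the next precursor, had 302 and 210 CPM in the normal libraries and 257 and 220 CPM in the diabetic libraries, again within the normal range.

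Among the abundant members of the array, miR-541-5p and miR-381-3p separated the groups with TMM scaling. On library totals normal ulcer 2 was the lowest library for both (267.1 and 236.3 CPM), and the groups overlapped. mmu-miR-541-5p (chr12:109742422-109742446, in a Mirg intron) had 405 and 428 CPM in the normal libraries 1 and 2, and 358 and 309 CPM in the diabetic libraries 1 and 2. The means were 417 ± 15.9 and 334 ± 34.9 CPM (SD, n = 2), and the log2 difference was -0.32 ± 0.24 (SE). mmu-miR-381-3p (chr12:109726870-109726891) had 457 and 378 CPM in the normal libraries and 281 and 317 CPM in the diabetic libraries, with means of 418 ± 55.7 and 299 ± 26.1 CPM (SD, n = 2). Its log2 difference of -0.48 ± 0.25 (SE) had an unadjusted p = 0.104 and adjusted p = 0.999 in edgeR. miR-300-3p, whose sequence differs from that of miR-381-3p at 3 bases, had 174 and 130 CPM in the normal libraries and 120 and 142 CPM in the diabetic libraries, with overlap. A shortened read that keeps base 4 still tells this pair apart, unless the authors' counting allowed mismatches. How reads were counted is not known, so the values of the pair are uncertain to that extent.

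miR-134-5p, which limits dendritic spine size in rodent neurons, followed the replicate number more than the group. It had 104.2 and 129 CPM in the normal libraries 1 and 2, and 98.6 and 140 CPM in the diabetic libraries 1 and 2, and library 2 was the higher one in both groups. Its log2 difference was 0.04 ± 0.28 (SE). miR-382-5p, cut from a neighbouring precursor, had 36.6 and 40.1 CPM in the normal libraries and 29.6 and 26.9 CPM in the diabetic libraries. Its groups did not overlap (log2 difference -0.44 ± 0.29, SE).

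The lowest log2 differences among members of at least 10 mean CPM belonged to miR-154-5p and miR-299a-3p. miR-154-5p had 28.3 and 20.1 CPM in the normal libraries 1 and 2, and 19.97 and 8.81 CPM in the diabetic libraries 1 and 2. Diabetic ulcer 1 was almost level with normal ulcer 2, and the log2 difference was -0.75 ± 0.49 (SE). It was -1.45 without diabetic ulcer 1 and -0.21 without diabetic ulcer 2. miR-299a-3p had 62.0 and 41.5 CPM in the normal libraries and 36.1 and 28.0 CPM in the diabetic libraries, with a log2 difference of -0.69 ± 0.34 (SE) and an unadjusted p = 0.0899 in edgeR. In both groups library 2 was again the lower one. The highest log2 difference in the array at this level belonged to miR-409-3p, with 13.0 and 14.7 CPM in the normal libraries and 16.9 and 19.6 CPM in the diabetic libraries (0.40 ± 0.32, SE, without overlap). None of the 3 passed (adjusted p = 0.999 for each).

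Other members of the array lay on both sides of 0, and none passed the test. miR-409-5p had 31.3 and 31.6 CPM in the normal libraries and 33.4 and 24.9 CPM in the diabetic libraries, with overlap (log2 difference -0.11 ± 0.31, SE). miR-299a-5p had 8.74, 10.9, 9.22 and 8.54 CPM in normal ulcer 1, normal ulcer 2, diabetic ulcer 1 and diabetic ulcer 2, with overlap, where its partner arm separated the groups. miR-369-3p had 11.4, 11.5, 8.49 and 9.36 CPM in the same order, without overlap (log2 difference -0.36 ± 0.33, SE). miR-369-5p and miR-485-5p did not overlap between groups either, with log2 differences of -0.40 and -0.47. Higher values in diabetic ulcer were found for miR-410-3p, which closes the array, with 5.80 and 6.32 CPM against 7.14 and 6.79 CPM (log2 difference 0.20 ± 0.33, SE). miR-495-3p and miR-323-3p had log2 differences of 0.29 ± 0.47 and 0.47 ± 0.42 (SE), both with overlapping groups.

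**Figure D4:**
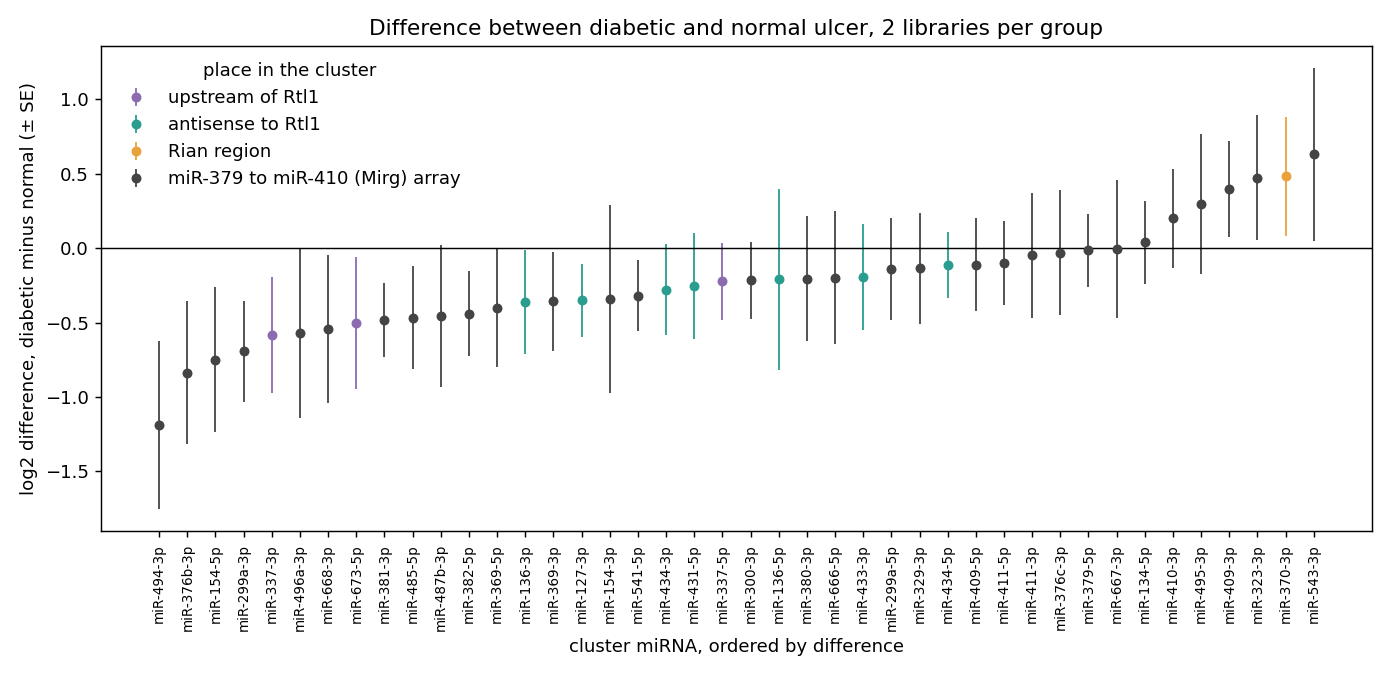
Log2 difference, diabetic minus normal, of each of the 42 tested members with its standard error (edgeR, 2 libraries per group), ordered by size and coloured by place in the cluster. Of the 42, 35 lie below 0 and 7 above, and the 7 members opposite Rtl1 all lie between -0.36 and -0.11.

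Among the rare members, those under 10 mean CPM, 20 of 27 were tested, and 16 of the 20 were below 0. The ends of this range were chosen after their values were seen. miR-494-3p, counted 20 and 14 times in normal ulcer and 11 and 5 times in diabetic ulcer, had 1.68, 1.67, 0.994 and 0.459 CPM and the lowest log2 difference of all members (-1.19 ± 0.56, SE, unadjusted p = 0.0833 in edgeR). It was -1.83 without diabetic ulcer 1 and -0.68 without diabetic ulcer 2. miR-376b-3p, of a family whose precursors are edited from A to I in brain, had 49, 24, 15 and 28 counts and a log2 difference of -0.84 ± 0.48 (SE). miR-543-3p, with 11, 17, 18 and 31 counts, had the highest log2 difference (0.63 ± 0.58, SE). It was 0.13 without normal ulcer 1, 1.37 without normal ulcer 2, 0.98 without diabetic ulcer 1 and 0.23 without diabetic ulcer 2. In miR-543-3p library 2 was above library 1 in each group, and the groups overlapped. The 7 untested members had 0 to 12 counts per library. Of the 3 counts of 0 among members, the one of miR-412-5p in normal ulcer 2 allows up to 0.224 CPM, and those of miR-485-3p and miR-493-5p in diabetic ulcer 2 allow up to 0.279 CPM, both over library totals. miR-377-3p, raised in models of diabetic kidney disease, was among the untested with 10 and 3 counts in normal and 2 and 4 in diabetic ulcer.

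Both arms were members for 9 precursors, and the ratio of arms within a library does not depend on scaling. Arm preference was stable in direction for 8 of them. The 5p arm held most counts in all libraries for miR-154 (83.5% to 96.9%), miR-337 (92.7% to 95.4%), miR-409 (56.0% to 70.6%), miR-411 (90.5% to 96.2%) and miR-485 (89.5% or more). The 3p arm held most for miR-299a (5p share 12.4% to 23.4%), miR-369 (19.0% to 28.2%) and miR-434 (29.3% to 41.6%). For miR-136 the 5p share was 52.2% (95% Wilson interval 46.9 to 57.4) and 52.0% (46.1 to 57.9) in library 1 of normal and diabetic ulcer, showing no preference, and 32.9% (26 to 40.6) and 39.5% (32.2 to 47.3) in library 2, where the 3p arm held more. It differed by replicate number.

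The groups did not overlap in arm share for 3 of the 9, miR-409, miR-337 and miR-485, nor for 3 of 15 precursors with 1 listed arm (miR-341, miR-376b and miR-495). That is 6 of 24, where 32.4% of all precursors with both arms in the table did not overlap. For miR-409 the 5p share was 70.6% (95% Wilson interval 66.6 to 74.4) and 68.3% (63.5 to 72.7) in normal ulcer 1 and 2. It was 66.4% (62.4 to 70.2) and 56.0% (51.5 to 60.3) in diabetic ulcer 1 and 2. Diabetic ulcer 1 was within the interval of normal ulcer 2 and just under that of normal ulcer 1, and diabetic ulcer 2 was below both intervals. For miR-337 the mean shares were 93.5% ± 1.06 in normal and 94.8% ± 0.778 in diabetic ulcer (SD, n = 2), and for miR-485 they rested on 34 to 58 counts of the 5p arm and 0 to 6 of the 3p arm. These differences had no test of their own.

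**Figure D5:**
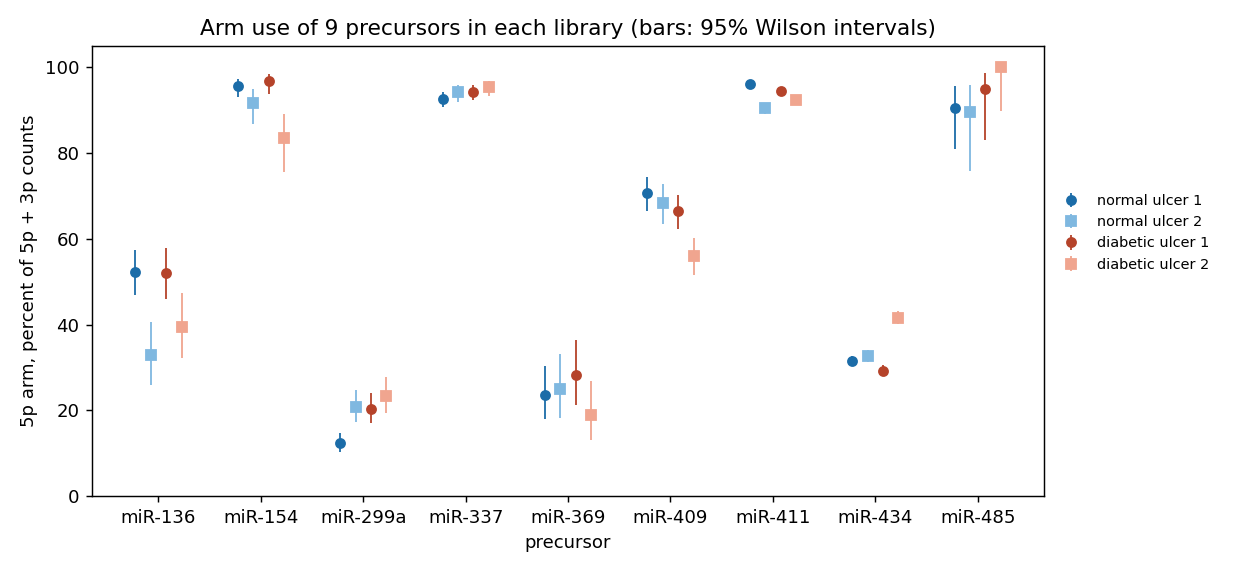
Share of the 5p arm in the 5p plus 3p counts (percent) for 9 precursors with both arms listed, in each of the 4 libraries, with 95% Wilson intervals for counting error. The share of miR-434 in diabetic ulcer 2 (41.6%) lies above the other 3 libraries, and for miR-136 library 1 of each group (52.2% and 52.0%) lies above library 2 (32.9% and 39.5%).

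Libraries of the same group also differed. Among tested members, library 2 was below library 1 for 21 of 42 in normal ulcer and for 25 of 42 in diabetic ulcer, against 58.2% and 46.3% of all tested miRNAs. For 16 of the 42 it was below in both groups, against 33.4% of all. Among the members opposite Rtl1 it was below in both groups for 5 of 7. Keratinocyte and epithelial miRNAs (8 of 8 detected, including miR-203-3p and miR-205-5p) differed by replicate number, with summed levels of 52560 and 23000 CPM in the normal libraries 1 and 2, and 42830 and 19330 CPM in the diabetic libraries 1 and 2. Skeletal muscle miRNAs differed by more, from 128900 to 1059000 summed CPM, with miR-208b-3p at 0 in all but normal ulcer 2 and miR-499-5p at 0 in normal ulcer 1. Fibroblast and mural miRNAs (5 of 5, including miR-199a-3p and miR-143-3p) summed to between 42120 and 50660 CPM. Most of that sum was miR-143-3p, at 32340 and 30170 CPM in the normal libraries and 27020 and 38840 CPM in the diabetic libraries. miR-199a-3p had 12430 and 8360 CPM in the normal libraries and 11380 and 7741 CPM in the diabetic libraries. Library 2 was below library 1 in both groups for 4 of these 5 miRNAs, and for 7 of the 8 keratinocyte and epithelial ones. The 5 neural miRNAs summed to between 168.5 and 271.6 CPM, and of the 4 tested 2 were below 0 and 2 above. Among the 5, miR-124-3p was not tested, at 0.588 and 0.716 CPM in the normal libraries and at 0 in both diabetic libraries. Those counts of 0 allow up to 0.322 and 0.279 CPM over library totals in diabetic ulcer 1 and 2. miR-129-5p was at 6.72 and 12.5 CPM in the normal libraries against 3.25 and 46.2 CPM in the diabetic libraries.

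Another 22 mature miRNAs of the cluster, outside the list of members and mostly partner arms, were in the table. They summed to 66.7 and 73.2 CPM in the normal libraries and 62.5 and 68.9 CPM in the diabetic libraries. Of the 10 that passed the filter, 4 had negative and 6 positive log2 differences (median 0.13), and none was called. miR-379-3p had 14.7 and 23.8 CPM in the normal libraries and 15.3 and 22.1 CPM in the diabetic libraries, and miR-376b-5p had 13.2, 10.5, 13.3 and 11.3 CPM in that order, both overlapping. miR-127-5p had 12.1 and 9.55 CPM in the normal libraries and 9.22 and 7.16 CPM in the diabetic libraries, without overlap, like its partner arm.

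The authors' deposited table of the comparison did not divide the libraries as the labels do. Its headers call D3C, the code of the libraries titled diabetic ulcer, the control. D3M, the code of those titled normal ulcer, is called the case. Groups here follow the titles, and the direction of every difference rests on them. The base mean of D3C was the count of diabetic ulcer 2 times 0.931. This held to within 1% in 384 of 384 entries with a base mean above 20, 36 of them members. The base mean of D3M was a weighted sum of normal ulcer 1 (0.283), normal ulcer 2 (0.412) and diabetic ulcer 1 (0.329). This held to within 1% in 377 of 377 entries, 38 of them members. The columns numbered 3 had a weight of 0.0 in both. The fold changes and p-values of the authors' deposited table therefore set diabetic ulcer 2 against the other 3 libraries, and are not given here as a comparison of normal with diabetic ulcer.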

How the data were processed

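Small RNA was isolated from skin with a mirVana kit and sequenced on an Illumina HiSeq instrument, per the labels' protocols. The deposited count table gives unnormalized reads for every mature miRNA as whole numbers. The authors' TPM values, scaled to a library total, served only as an alternative. Per the file headers, the authors' comparison used DESeq2, unpaired, and lists a fold change (ratio), its log2 value, p-values and q-values. These were not used, since its base means set diabetic ulcer 2 against the other libraries. Base means and mature lengths are other deposited values, read from the file headers. The submitters' processing notes name GRCm38 and mm10, while no source used here names the aligner, counter or miRNA release.

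Samples were grouped by title, and columns were matched to samples by the code in the title. The test was edgeR 4.0.16's quasi-likelihood F test (R 4.3.3) on all miRNAs of libraries 1 and 2 of each group, with TMM scaling, filterByExpr at its defaults, group as the only term and Benjamini-Hochberg adjustment. Calls needed an adjusted p under 0.05. Standard errors are the log2 difference over the square root of F. No p is given for a sum over members. The code was tested on simulated counts. Described singly were the 12 most abundant members, the 5 lowest and 5 highest log2 differences at a mean CPM of at least 10, members with unadjusted p under 0.05, members whose other arm is listed, and those sharing a seed. Other members named were chosen for position or role, or for extreme values after these were seen. Members and lists were chosen with earlier results of these data known. Alternatives were DESeq2 1.42.0, limma 3.58.1 on log2 TPM with pseudocounts of 1 and 10, other scalings and filters, all 6 columns, a replicate block, and each library left out. A count of 0 allows up to 3 counts. Seeds and places come from RefSeq (GRCm38.p6) and GENCODE M21.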

Additional observations from a re-analysis of the deposited data

How the results depend on the processing

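With 2 independent libraries per group, the values limit what can be called, and members under 10 CPM rest on few counts. No cluster miRNA was called in any alternative run. The number of all miRNAs called was 0 except with library totals, which called 1 (miR-499-5p, a muscle miRNA chosen after its values were seen), and when a library was left out, where it ranged from 0 to 6 (6 without normal ulcer 1, none a member). Members lower in diabetic ulcer numbered 28 to 35 when a library was left out, 32 over all 6 columns and 18 of 22 tested with a mean CPM of at least 10, where fewer miRNAs are tested. Over all 6 columns 8 members had an unadjusted p under 0.05 in edgeR, against 11% of all tested miRNAs. The columns numbered 3 were not independent of the others, which for diabetic ulcer 3 was seen directly only at low counts. The members' median log2 difference moved to -0.11 with library totals, where that of all tested miRNAs moved from -0.02 to 0.17. On deposited TPM the members' median was -0.11 and -0.034 with pseudocounts of 1 and 10. It ranged from -0.43 (without diabetic ulcer 1) to -0.14 (without diabetic ulcer 2) when a library was left out. The log2 ratio of the summed level was -0.08 with library totals, -0.17 without the 5 most abundant miRNAs and -0.15 to -0.28 with a library left out. Over counts outside miR-1a-3p, chosen after seeing the data, it was -0.14. The cause of these moves was not tested.

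The numbers in the labels are not said to pair samples. Same-numbered libraries deviated together (r = 0.44 over 443 tested miRNAs, r = 0.49 over 42 members). With the replicate block 0 miRNAs and 0 members were called, 34 members were lower (median -0.22), and 20 miRNAs had an unadjusted p under 0.05, 2 of them members.

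Of 34 members described with a log2 difference or library values, each run under up to 15 alternatives, 20 kept their sign in all that gave a value. Signs changed over all 6 columns for miR-379-5p (0.076) and miR-411-3p (0.19). With library totals they changed for miR-379-5p (0.18), miR-434-5p (0.049), miR-411-3p (0.28), miR-299a-5p (0.093), miR-433-3p (0.06) and miR-409-5p (0.081). On deposited TPM they changed for miR-379-5p (0.085 and 0.084 with pseudocounts of 1 and 10), miR-411-5p (0.017 and 0.011) and miR-411-3p (0.096 and 0.045). miR-379-5p also turned at a mean CPM of at least 10 (0.009), without a filter (0.056) and without the 5 most abundant miRNAs (0.061). miR-411-3p turned without a filter (0.019), without the 5 most abundant (0.022) and with the replicate block (0.008), and miR-134-5p with upper quartile scaling (-0.004). With a library left out, the ranges that included both signs were -0.10 to 0.18 for miR-379-5p, -0.44 to 0.58 for miR-411-3p, -1.18 to 0.21 for miR-154-3p, -0.65 to 0.088 for miR-434-3p, -0.23 to 0.18 for miR-411-5p, -0.18 to 0.31 for miR-134-5p, -0.89 to 0.59 for miR-136-5p, -0.33 to 0.15 for miR-409-5p, -0.30 to 0.001 for miR-300-3p, -0.092 to 0.85 for miR-495-3p, -0.52 to 0.036 for miR-431-5p, -0.42 to 0.16 for miR-433-3p and -0.30 to 0.13 for miR-299a-5p. The cause was not tested.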

Other observations

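Other imprinted loci gave few miRNAs in these libraries, 7 in the table and 6 tested, with 4 lower and 2 higher in diabetic ulcer and a median log2 difference of -0.15. None was called by edgeR, and none had an unadjusted p under 0.05. The arms of miR-335, from an intron of the imprinted Mest gene, are given side by side. miR-335-5p had 11.8 and 17.5 CPM in the normal libraries 1 and 2, and 4.52 and 12.2 CPM in the diabetic libraries 1 and 2. miR-335-3p had 16.7 and 21.5 CPM in the normal libraries and 16.7 and 41.2 CPM in the diabetic libraries. miR-296-3p, of the imprinted Gnas region, had 5.04, 2.98, 3.61 and 3.86 CPM in the same order. miR-675-3p is cut from the imprinted H19 RNA and was chosen after its values were seen. It had 0.420 and 0.358 CPM in the normal libraries and no counts in either diabetic library, and was not tested. Those counts of 0 allow up to 0.322 and 0.279 CPM over library totals in diabetic ulcer 1 and 2, near the normal values.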
